A study of Coprinopsis cinerea with 4 samples.

Results

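Paralogous regions are stretches of a genome that resemble other stretches of the same genome and descend from gene duplication. Many duplicated genes stay side by side as a cluster of copies, while others lie alone among unrelated genes. A fungal genome also holds orthologous genes, which have a counterpart in other species, and orphan genes, for which no counterpart is known. The deposited table of Coprinopsis cinerea, a mushroom with a mycelium of filaments, puts each genic region in 1 of these 3 classes, and the regions described here are the paralogous ones that stand alone. A region was included when the previous and the next region on its chromosome were both orthologous or orphan, and when it lay more than 100000 bases from any centromere row and from the chromosome's outermost rows. The rule used names and positions and no read count. It found 783 regions, of 13236 regions in all and of 3717 paralogous ones. A further 121 isolated regions were left out, 78 near an end and 43 near a centromere. The table has centromere rows for 9 of the 13 chromosomes, so the distance from a centromere was not applied on the other 4.

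RNA was sequenced from hyphae, the growing filaments, and from oidia, the single-celled asexual spores, with 2 libraries of each stage. All 4 libraries came from the strain okayama7#130, and the labels name no mutation or treatment. RNA was taken through poly(A) selection for both stages, but hyphae were prepared with the NEBNext Ultra kit for Illumina and oidia with the SOLiD Total RNA-seq kit. Kit and stage therefore cannot be told apart in any difference given here. Gene rows held 4586306 and 3546635 reads in hyphae 1 and 2, and 7519091 and 6128727 reads in oidia 1 and 2. The labels do not say whether the libraries of a stage are of separate cultures. The p-values therefore cover no more than the difference between 2 libraries of a stage, and that may be technical. No list of stage markers could be checked, because no product name is given for the genes.

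The isolated regions were single genes in their positions. Of the 783, 782 lay inside exactly 1 gene of the RefSeq assembly CC3, and 662 of these ended within 3 bases of the gene's own ends, so each is called by that gene's locus tag. No source used here names the build behind the table's coordinates, and coordinates are printed as the table has them. Lengths ran between 84 and 8491 bases with a median of 1589, and the median gap to a neighbour was 670.5 bases. Both neighbours were orthologous for 198 regions, both were orphan for 210, and 375 had a neighbour of each class. Isolation was often narrow: 386 regions (49.3%) had only 1 row between them and another paralogous region, and the nearest other paralogous region lay at a median distance of 4726 bases. On the 13 chromosomes they numbered between 31 and 83. Their share of the regions away from centromeres and ends was 4.30% at the lowest, on chromosome 1, and 11.7% at the highest, on chromosome 13. Of all 3046 paralogous regions away from centromeres and ends, 25.7% were isolated in this sense.

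Transcription of the isolated regions was low in both stages but not as low as that of clustered paralogs. The levels are reads per kilobase of region and per 1e+06 library reads (RPKM), with library sizes scaled by TMM, a method that sets the bulk of genes equal between libraries. In bulk RNA, fewer cells that transcribe a locus and less RNA per cell cannot be told apart. The median isolated region had 2.33 and 2.24 RPKM in hyphae 1 and 2, against 1.33 and 1.35 RPKM in oidia 1 and 2. In paralogous regions with a paralogous neighbour the medians of the stage means were 0.670 RPKM in hyphae and 0.244 RPKM in oidia. In orphan regions they were 3.01 RPKM in hyphae and 2.23 RPKM in oidia, and in orthologous regions 14.1 RPKM in hyphae and 12.7 RPKM in oidia. No source used here says where a read that fits several copies was counted, which leaves the level of any single paralogous region uncertain. Among the most abundant regions of the genome, isolated paralogs held 2 of the 10 highest places in hyphae and 1 of 10 in oidia. They held 37 of the 1000 highest places in hyphae and 38 of 1000 in oidia, where they make up 5.92% of all regions.

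**Figure D1:**
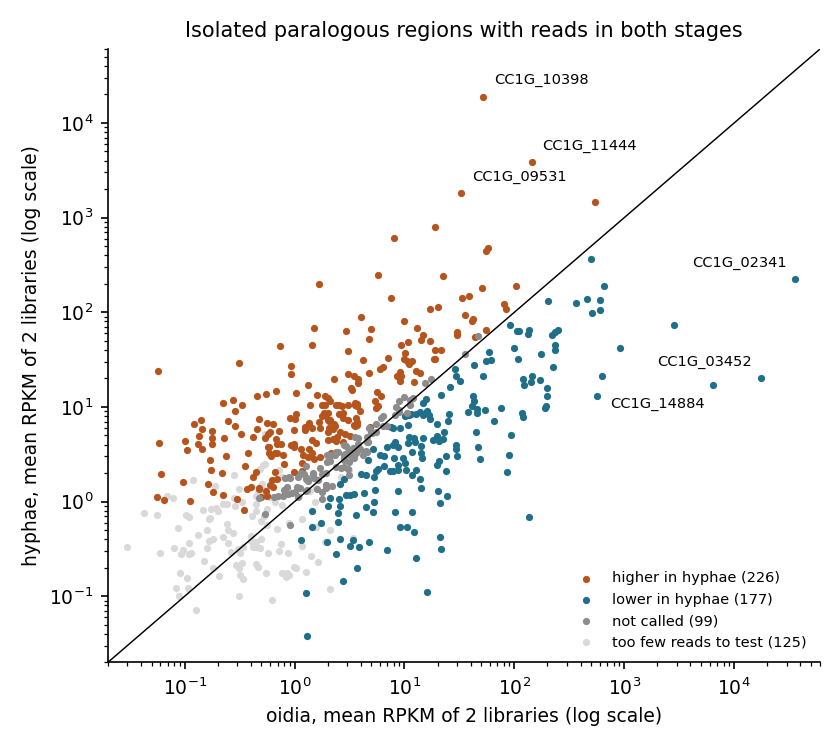
Mean RPKM in hyphae (vertical) and in oidia (horizontal), both on log scales, of the 627 isolated paralogous regions with reads in both stages. Each point is 1 region, coloured by its call, and the line marks equal levels. CC1G_10398 stands at 18869 RPKM in hyphae and CC1G_02341 at 36070 RPKM in oidia.

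Reads were found in both stages for 627 of the 783 regions. In 141 regions reads were found in hyphae and none in oidia, 3 regions had the opposite, and 12 had no read at all. Regions with hyphal reads alone were 18.0% of isolated paralogs, against 34.7% of paralogs with a paralogous neighbour and 15.1% of all regions, and regions with no read were 1.53% of isolated paralogs, against 2.58% of all regions. A count of 0 in a stage allows up to 3 reads over that stage, and such floors and the intervals given here cover counting error only. Of the 141 regions with hyphal reads alone, 17 had enough reads to test. The other 124 held 2.85 and 1.45 reads per kb in hyphae 1 and 2, with a median of 4 reads over both libraries. In the same libraries the density was 0.846 and 0.357 reads per kb over repeats and centromeres that lacked oidia reads. After scaling, hyphae 1 exceeded hyphae 2 by a ratio of 1.51 in the 124 regions and 1.82 in the repeats and centromeres, against 1.00 over all isolated regions. The part of such background reads in the 124 regions was not tested.

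Most isolated regions with enough reads differed between the stages, as did most tested regions of the genome. Somewhat more of the isolated regions were higher in hyphae than lower. Enough reads to test were present in 520 of 783 regions (66.4%). By edgeR's quasi-likelihood test on the counts of all non-gene rows, at a Benjamini-Hochberg adjusted p under 0.05, 243 were higher in hyphae (46.7% of those tested) and 178 were lower (34.2%), and 99 were not called. Among all 9576 tested regions of the genome 44.1% were higher in hyphae and 40.0% were lower, and 1521 were not called. The median log2 fold change, hyphae over oidia, was 0.46 for isolated paralogs and 0.12 for all tested regions. It was 0.64 for paralogs with a paralogous neighbour, 0.04 for orphan and 0.10 for orthologous regions. The 18 tested isolated regions with no read in 1 stage lie on the same side of this median when set at their bound, so the median is 0.46 by construction. No test was made between the classes.

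The direction of this lean depended on scaling and abundance. With libraries scaled by total counts, 381 isolated regions were higher in hyphae and 92 lower, so that 80.5% of the called regions were higher, against 57.7% with TMM. Among all tested regions the same share was 81.4% with total counts and 52.4% with TMM. With total counts the median over all tested regions was 1.67, and 64 of the 178 isolated regions lower in hyphae by TMM had a log2 fold change above 0. Each direction given here is therefore relative to TMM. With a mean count of at least 100, 76 were higher and 96 lower, and the median was -0.34. That filter left 2050 higher and 2569 lower of all regions with a median of -0.23, so the median of all regions turned as well. Cyclic loess with limma-voom, chosen after seeing the data, gave 189 isolated regions higher and 184 lower with a median of -0.056, against 0.030 for all tested regions. Calls over all tested regions were then 3675 higher and 3634 lower. Regions with little RNA and regions with much RNA had medians of opposite sign, at 1.16 for a mean scaled count under 30 and -0.94 for 300 or more. All tested regions had 1.01 and -0.94 in the same ranges. Between 30 and 100 the medians were 0.56 for isolated paralogs and 0.58 for all tested regions. Between 100 and 300 they had opposite signs, at -0.20 for isolated paralogs and 0.16 for all tested regions. In that range 39.0% of isolated paralogs were higher in hyphae and 49.0% lower, against 46.9% and 39.7% of all tested regions.

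Large changes were frequent. At least 4-fold changes past the threshold were found for 140 isolated regions higher in hyphae (26.9% of those tested, against 19.7% of all tested regions) and for 88 lower in hyphae (16.9%, against 16.0%). Both directions together came to 43.8% of isolated paralogs, 49.4% of paralogs with a paralogous neighbour, 41.2% of orphan and 28.9% of orthologous regions. At least 16-fold changes were fitted for 57 regions higher in hyphae (10.96%, against 6.55% of all tested regions) and 27 lower (5.19%, against 4.06%). At least 64-fold changes were fitted for 22 higher (4.23%, against 2.51%) and 7 lower (1.35%, against 1.19%). The higher isolated regions of both counts include 17 with no oidia read. Set against the floor of 3 reads, 10 of these 17 reached 16-fold and 3 reached 64-fold. Over all tested regions both counts include 144 with no oidia read, of which 67 reached 16-fold and 15 reached 64-fold by that floor. Most of the 22, and most of the 240 at least 64-fold higher over all tested regions, thus have fitted and not measured folds. The 7 lower include CC1G_00657, which has no hyphal read and is at least 49.3-fold lower by the same floor. With cyclic loess normalization and limma-voom, an alternative chosen after seeing the data, 93 were at least 4-fold higher and 98 at least 4-fold lower, so the excess toward hyphae was not kept. Both directions together then came to 36.7% of tested isolated paralogs and 30.7% of all tested regions.

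**Figure D2:**
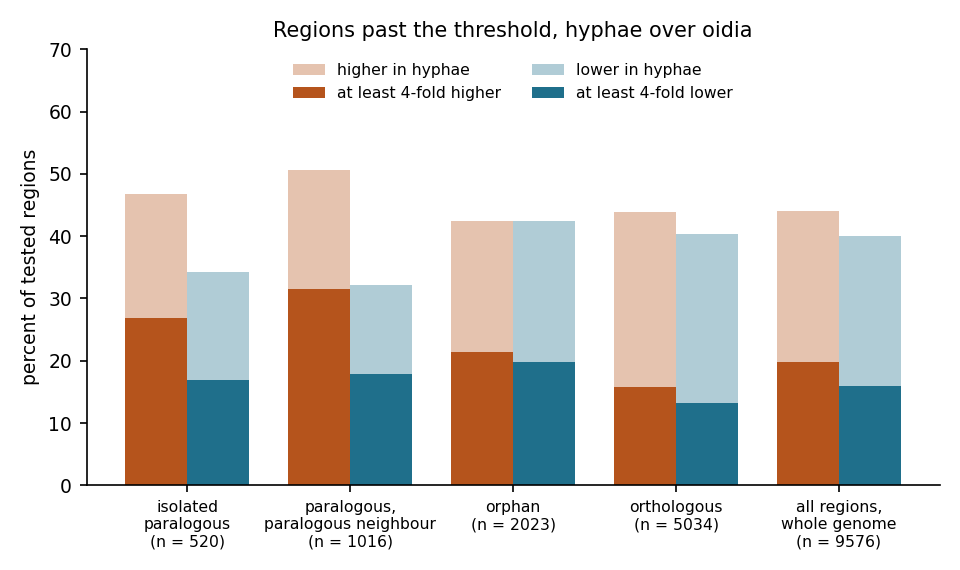
Percent of tested regions past the threshold (vertical) for isolated paralogs, other classes away from centromeres and ends, and all regions of the genome. Orange bars are regions higher in hyphae and blue bars regions lower in hyphae, and the dark part of each bar is the share with at least a 4-fold change. For isolated paralogs the dark parts are 26.9% and 16.9%, and for orthologous regions 15.7% and 13.2%.

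The share of at least 4-fold changes was compared at like abundance, as a description. In regions with a mean scaled count under 30 it was 46.7% of tested isolated paralogs and 45.8% of all tested regions. Between 30 and 100 it was 36.4% and 32.6%. At 100 to 300 it was 42.0% of 100 isolated paralogs and 27.8% of all regions, and at 300 or more it was 56.1% of 82 isolated paralogs and 39.3% of all regions. The gap between isolated paralogs and all regions was thus widest among the well-covered regions, which also have the least counting error. Orphan regions and other paralogs were not set beside them at like abundance. Whether the gap is particular to isolated paralogs was therefore not tested.

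Length went with the fold change. Among the shortest isolated regions, up to 1065 bases, the median log2 fold change was 1.76, and 61 of 98 tested regions were higher in hyphae (62.2%, against 48.5% of all regions of that length). Between 1073 and 1589 bases the median was 0.98, and between 1594 and 2364 bases it was 0.43. In the longest, between 2365 and 8491 bases, the median was 0.06, with 54 higher and 68 lower of 159 tested (34.0% and 42.8%, against 36.1% and 46.9%). All tested regions of the same lengths had medians of 0.40, 0.26, 0.21 and -0.19, the same order over a narrower range. Enough reads to test were present in 98 of 196 of the shortest isolated regions and in 159 of 196 of the longest. The median also fell with abundance, from 1.16 for a mean scaled count under 30 to -0.94 for 300 or more. The parts of abundance, of the read filter and of the 2 library kits in the order by length were not tested.

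**Figure D3:**
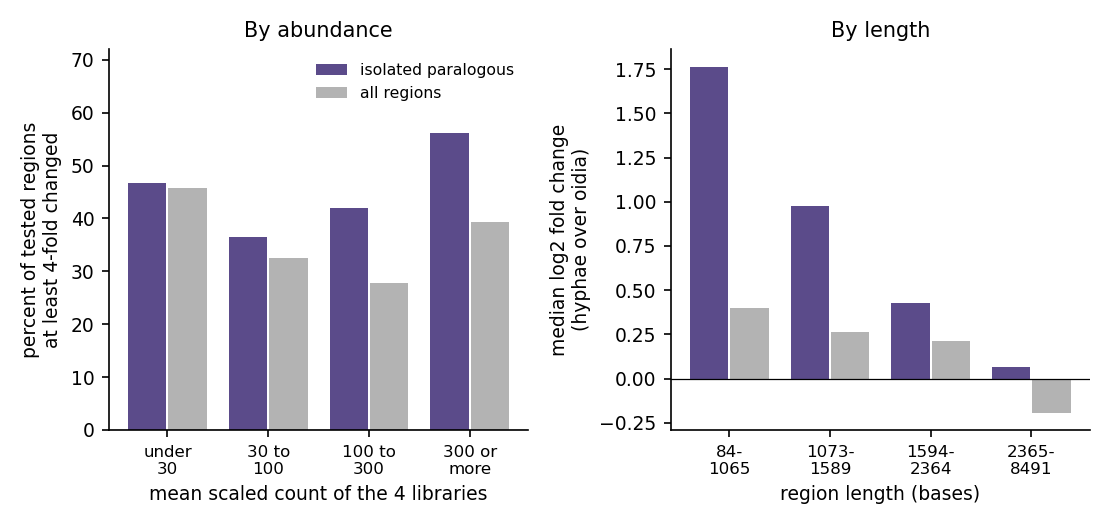
Isolated paralogous regions (purple) beside all tested regions (grey). Left, percent with at least a 4-fold change by mean scaled count, reaching 56.1% and 39.3% in the highest range. Right, median log2 fold change (hyphae over oidia) by length in bases, with 1.76 and 0.40 in the shortest range.

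Reads of the isolated regions were concentrated in a few loci, and different ones in each stage. They took 6.53% and 6.16% of the reads of all regions in hyphae 1 and 2, against 2.83% and 2.83% in oidia 1 and 2. The difference of 3.51 percentage points was larger than the spread within either stage (6.34% ± 0.260 in hyphae and 2.83% ± 0.000673 in oidia, SD, n = 2 each). An exact two-sided permutation test gave p = 0.33, the smallest that 2 against 2 libraries allow. CC1G_10398 alone held 52.2% ± 0.268 of the members' reads in hyphae, and 0.113% ± 0.0247 of them in oidia (SD, n = 2 each). CC1G_02341 held 0.33% ± 0.017 of them in hyphae and 42.0% ± 0.398 of them in oidia (SD, n = 2 each). Without these 2 loci the isolated regions took 3.01% ± 0.107 of region reads in hyphae and 1.64% ± 0.0102 in oidia, a difference of 1.37 points (SD, n = 2 each). Genes are named only by locus tag, so no function is given for them here.

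CC1G_10398 was the most abundant isolated paralog of hyphae and the third of all regions in that stage. It lies on chromosome 2 from 3266054 to 3267220, between an orthologous and an orphan region. It had 174051 and 132452 reads in hyphae 1 and 2, against 309 and 186 reads in oidia 1 and 2, which is 18967 and 18770 RPKM against 59.7 and 44.8 RPKM. The hyphal libraries lay far above the oidia libraries, and the log2 fold change was 8.48 with a standard error of 0.09. Its neighbours were lower in hyphae. CC1G_10397 had a log2 fold change of -3.14 (adjusted p = 8.73e-140) and CC1G_10399 of -0.50 (adjusted p = 0.00315, edgeR). With total-count scaling these were -1.59 and 1.04, so the sign of CC1G_10399 turned. Cyclic loess with limma-voom, chosen after seeing the data, put CC1G_10398 at 10.39.

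CC1G_11444, CC1G_09531 and CC1G_08735 followed it in hyphae. CC1G_11444 (chromosome 6, 818643 to 819166) had 3859 and 3779 RPKM in hyphae, against 147 and 142 RPKM in oidia, and a log2 fold change of 4.72, or 6.14 with cyclic loess. CC1G_09531 (chromosome 6, 1288534 to 1289287) had 1795 and 1811 RPKM in hyphae, against 28.1 and 37.7 RPKM in oidia, and its log2 fold change was 5.79 with a standard error of 0.10. Its next neighbour, CC1G_09532, had a log2 fold change of 5.53. CC1G_08735 (chromosome 10, 939821 to 940209) was abundant in both stages, at 1451 and 1462 RPKM in hyphae, against 529 and 554 RPKM in oidia, and its log2 fold change was 1.43 (adjusted p = 2.13e-85, edgeR).

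The largest hyphal gains included loci with almost no oidia RNA. CC1G_05776 (chromosome 12, 138358 to 139229) had 4539 and 3789 reads in hyphae and none in oidia, or at least 1594-fold more, taking 3 reads over both oidia libraries as the floor. CC1G_02432 (chromosome 9, 790387 to 792847) had 490 and 341 hyphal reads, against 0 and 1 oidia reads. Its scaled read ratio was 477 with a 95% exact (Clopper-Pearson) interval between 85.4 and 18874, and its fold is thus known only roughly. The fitted log2 fold change was 8.65, and 7.63 without oidia 1. CC1G_08882 (chromosome 5, 157854 to 158596) had 1093 and 945 hyphal reads, against 6 and 4 oidia reads, a ratio of 117 (63.5 to 244). For all 3 loci no hyphal library overlapped an oidia library.

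Further loci of this direction were CC1G_07696, CC1G_06528, CC1G_03593, CC1G_06176 and CC1G_08199. CC1G_07696 had 590 and 620 RPKM in hyphae, against 8.85 and 7.09 RPKM in oidia. CC1G_06528 had 791 and 799 RPKM in hyphae, against 16.8 and 21.4 RPKM in oidia, and its next neighbour CC1G_06529 was also higher in hyphae, with a log2 fold change of 6.47. CC1G_03593, a region of 316 bases, had 241 and 255 RPKM in hyphae, against 4.28 and 7.12 RPKM in oidia. Their log2 fold changes were 6.22 for CC1G_07696, 5.40 for CC1G_06528 and 5.46 for CC1G_03593. The 2 remaining loci were less abundant. CC1G_06176 had 68.1 and 68.6 RPKM in hyphae, against 1.63 and 1.36 RPKM in oidia, with a log2 fold change of 5.48 and a standard error of 0.25. CC1G_08199 had 45.4 and 42.7 RPKM in hyphae, against 1.08 and 0.385 RPKM in oidia. Its log2 fold change was 5.81, and 6.79 without oidia 1, whose 7 reads were most of its 9 in oidia.

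**Figure D4:**
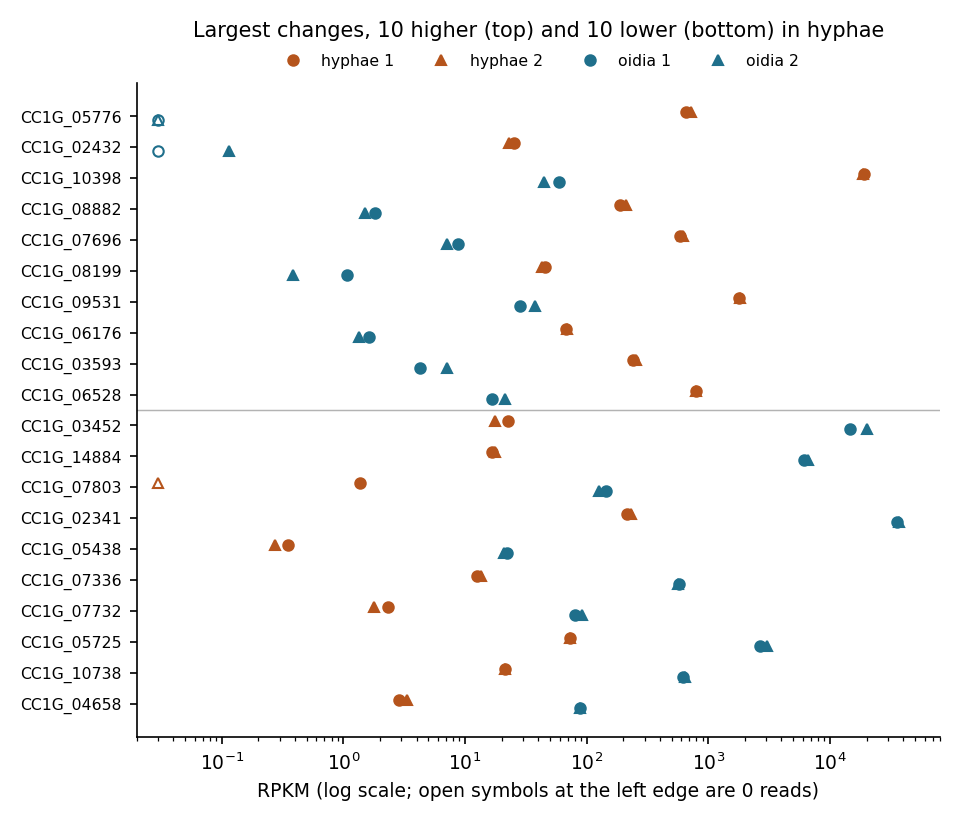
RPKM on a log scale (horizontal) in each library for the 10 isolated paralogs with the largest log2 fold changes in each direction among those with a mean scaled count of at least 100. Circles are replicate 1 and triangles replicate 2, hyphae orange and oidia blue, and open symbols at the left edge stand for 0 reads. The stages do not overlap for any of the 20 loci, which the rule for choosing them required.

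In the other direction CC1G_02341 was the most abundant isolated paralog of oidia and the 10th of all regions. It lies on chromosome 3 from 3171021 to 3171647. It had 216 and 232 RPKM in hyphae, against 35410 and 36731 RPKM in oidia. The log2 fold change was -7.33 with a standard error of 0.08, and -5.27 with cyclic loess. Its previous neighbour CC1G_02340 was also lower in hyphae, at -2.61, and its next neighbour CC1G_14278 had too few reads to test.

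CC1G_03452 and CC1G_14884 had the most negative log2 fold changes among well-covered isolated paralogs, at -9.70 and -8.51. Both regions are 84 bases long, the shortest of all 783. CC1G_03452 (chromosome 8, 860822 to 860905) had 15 and 9 hyphal reads, against 5439 and 6006 oidia reads. CC1G_14884 (chromosome 7, 2228986 to 2229069) had 11 and 9 hyphal reads, against 2293 and 1961 oidia reads. With so short a region the number of reads that can overlap its ends weighs on the RPKM, so the read counts are the safer measure. The gene row of CC1G_14884 held more reads than the region, 16 and 13 in hyphae against 8883 and 7174 in oidia. Its log2 fold change by the gene row was -9.90.

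The table held 8 regions of exactly 84 bases, a length singled out after the values of these 2 were seen. All 8 were paralogous, they lay on 4 chromosomes, and all 8 were lower in hyphae past the threshold, with log2 fold changes between -10.66 and -6.12. With total-count scaling these ran between -9.12 and -4.57. The other 6 had a paralogous neighbour or lay near an end or a centromere. CC1G_14011 (chromosome 2, 3100540 to 3100623) had 89 and 71 hyphal reads, against 24252 and 19100 oidia reads. CC1G_14855 (chromosome 7, 1788541 to 1788624) had 2 and 2 hyphal reads, against 221 and 208 oidia reads. Counts differed between the 8 regions by more than 10-fold. Whether they resemble each other in sequence or share reads was not tested. As the length was chosen with the values known, the common direction has no test. Regions of at most 100 bases numbered 12, of which 9 were paralogous. Among them the orphan regions CC1G_14462 and CC1G_15422, each of 87 bases, had log2 fold changes of -6.86 and 0.32. The orphan CC1G_13835 (87 bases) and the paralogous CC1G_14885 (81 bases) had too few reads to test.

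Other loci higher in oidia included CC1G_05725, CC1G_01568, CC1G_10738 and CC1G_07336, all among the well-covered regions. CC1G_05725 (chromosome 7, 2195265 to 2195611) had 72.6 and 72.9 RPKM in hyphae, against 2678 and 3023 RPKM in oidia. CC1G_01568 (chromosome 10, 320550 to 322824) had 41.9 and 42.2 RPKM in hyphae, against 903 and 922 RPKM in oidia, with a log2 fold change of -4.44. CC1G_10738 had 21.2 and 21.2 RPKM in hyphae, against 626 and 641 RPKM in oidia. CC1G_07336 had 12.6 and 13.6 RPKM in hyphae, against 579 and 561 RPKM in oidia. The replicates of these 4 loci lay close together, and the log2 fold changes of the 3 others were -5.29, -4.90 and -5.45.

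Less abundant loci lower in hyphae rested on few hyphal reads. CC1G_07803 (chromosome 12, 1869411 to 1870710) had 14 and 0 hyphal reads, against 839 and 590 oidia reads, and a log2 fold change of -7.44. The hyphal reads came from replicate 1 alone. The log2 fold change was -6.61 without hyphae 2, and -12.69 without hyphae 1, when no hyphal read was left, so that this value is not a measured fold. CC1G_05438 had 5 and 3 hyphal reads, against 176 and 135 oidia reads. Its scaled ratio of oidia over hyphae was 67.7 with an exact interval of 33.9 to 158. CC1G_07732 had 44 and 26 hyphal reads, against 862 and 786 oidia reads, and CC1G_04658 had 53 and 47, against 917 and 740, with log2 fold changes of -5.36 and -4.85.

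Reads in 1 stage alone were found for 18 of the 520 tested isolated regions (3.46%), against 154 of all 9576 tested regions (1.61%). The share was larger in tested paralogs with a paralogous neighbour, at 56 of 1016 (5.51%). It was 1.83% in orphan and 0.44% in orthologous regions. These classes also differed in abundance. The median over all their regions in hyphae was 2.21 RPKM for isolated paralogs and 0.670 RPKM for paralogs with a paralogous neighbour. It was 3.01 RPKM for orphan and 14.1 RPKM for orthologous regions. The part of abundance in these shares was not tested. CC1G_14979 had 286 and 207 reads in hyphae and none in oidia, at least 94.4-fold higher, and CC1G_00786 had 247 and 205 and none, at least 86.5-fold higher. CC1G_00657 (chromosome 1, 3498567 to 3501140) had no hyphal read and 40 and 45 reads in oidia, at least 49.3-fold lower in hyphae. Both of its neighbours were lower in hyphae too, CC1G_00656 at -3.32 and CC1G_00658 at -2.54. The other 2 regions with oidia reads alone were too sparse to test, CC1G_14887 with 14 and 3 oidia reads and CC1G_06670 with 3 and 2.

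A few isolated paralogs had like levels in both stages. The 3 well-covered regions with a log2 fold change nearest 0 were CC1G_00378, CC1G_09470 and CC1G_11245, at 0.03, 0.04 and 0.07 with standard errors of 0.11, 0.13 and 0.15. CC1G_00378 had 37.4 and 34.9 RPKM in hyphae, against 35.5 and 35.8 RPKM in oidia (adjusted p = 0.828, edgeR). CC1G_09470 had 12.1 and 12.5 RPKM in hyphae, against 12.2 and 11.6 RPKM in oidia, and CC1G_11245 had 5.09 and 5.56 RPKM, against 5.21 and 4.87 RPKM. A p over the threshold does not show that the levels are equal, and both upper-quartile and total-count scaling put all 3 past it, as higher in hyphae.

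The 3 longest isolated regions were all lower in hyphae. CC1G_11217, with 8491 bases, had 1.32 and 1.27 RPKM in hyphae, against 9.49 and 8.11 RPKM in oidia, and a log2 fold change of -2.77 (adjusted p = 7.77e-90, edgeR). CC1G_08657 had 2.51 and 2.58 RPKM in hyphae, against 9.93 and 10.3 RPKM in oidia, a log2 fold change of -1.99. CC1G_02725 had 0.785 and 0.746 RPKM in hyphae, against 2.20 and 2.77 RPKM in oidia, a log2 fold change of -1.68 that became -0.13 and was not called with total-count scaling.

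The most remote paralogs were CC1G_04252, CC1G_06771 and CC1G_00463, with 226337, 160492 and 155932 bases to the nearest other paralogous region. CC1G_04252 had 19.5 and 23.2 RPKM in hyphae, against 51.2 and 51.8 RPKM in oidia. Its log2 fold change of -1.27 (adjusted p = 2.88e-60, edgeR) was 0.27 with total-count scaling, and -0.19 and not called with cyclic loess. CC1G_00463 had 36.5 and 36.5 RPKM in hyphae, against 181 and 166 RPKM in oidia, and a log2 fold change of -2.25. CC1G_06771 had 2.44 and 3.10 RPKM in hyphae, against 2.36 and 3.31 RPKM in oidia, and the stages overlapped. Isolated paralogs were grouped by the rows to the nearest other paralog, as 1, 2 or 3, and 4 or more. Their median log2 fold changes were 0.70, 0.35 and 0.31, against 0.12 for all tested regions. Of those tested, 32.9%, 33.6% and 37.3% were lower in hyphae, against 40.0% of all tested regions. The shares higher in hyphae were 50.6%, 42.7% and 44.0%, against 44.1%, and did not follow this order. Changes of at least 4-fold did not follow it either. They made up 43.2% of tested regions with 1 row to the nearest other paralog, 48.2% with 2 or 3 rows, and 40.3% with 4 or more, against 35.7% of all tested regions.

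Isolated paralogs and their neighbours had the same direction about as often as adjacent regions in general. In 575 pairs of an isolated paralog and an adjacent region, both members of the pair were called. The direction was the same in 340 of them (59.1%). Among all adjacent rows away from centromeres and ends it was the same in 59.7% of called pairs, in adjacent paralogous pairs in 68.9%, and in adjacent orthologous pairs in 58.7%. Across 817 tested pairs the rank correlation of the log2 fold changes was 0.233, and these pairs share libraries and neighbours. With orphan neighbours 63.2% of 220 pairs matched, and with orthologous neighbours 56.6% of 355. An isolated paralog and another paralogous region with 1 row between them matched in 58.7% of 138 called pairs, against 52.0% for any rows so placed. No test was made of these differences.

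**Figure D5:**
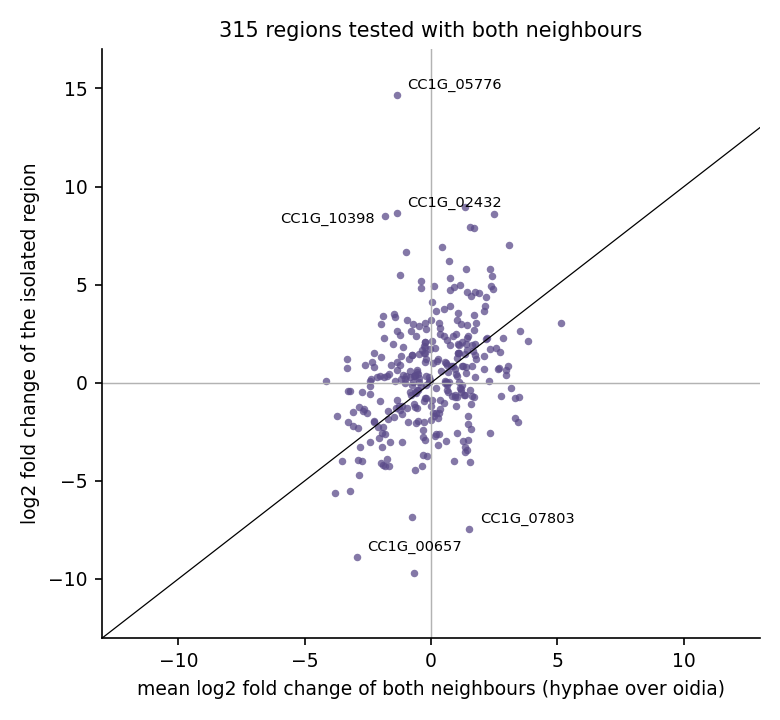
Log2 fold change (hyphae over oidia) of each isolated paralog (vertical) against the mean of its neighbours (horizontal), for the 315 regions tested with both neighbours. Each point is 1 region, and the line marks equal values. CC1G_10398, CC1G_02432 and CC1G_05776 stand high above neighbours whose mean is below 0, and the values of CC1G_05776 and CC1G_00657, with no read in 1 stage, are fitted and not measured folds.

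All 3 rows were called in 188 cases. The isolated paralog and both neighbours were higher in hyphae in 32 (17.02%) and lower in 34 (18.1%), against 19.3% and 16.0% of 3550 such cases among all regions away from centromeres and ends. The paralog was higher and both neighbours lower in 16 (8.51%), and the reverse held in 16, against 8.11% and 8.68% of all such cases. These shares were near those of regions in general. Where all 3 rows had a mean scaled count of at least 100, in 34 cases, the paralog differed from the mean of its neighbours by a median of 1.64 on the log2 scale in either direction, against 1.42 in 1122 cases among all such regions. The widest differences upward were those of CC1G_10398, which stood 10.30 above that mean, and of CC1G_02432 and CC1G_06176. CC1G_02432 had 8.65 beside -2.88 for CC1G_02431 and 0.20 for CC1G_02433, and CC1G_06176 stood 6.70 above its neighbours' mean.

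Below their neighbours the widest differences in the same 34 cases were smaller. CC1G_06381 (chromosome 4, 1983331 to 1985592) had 10.1 and 8.41 RPKM in hyphae, against 54.5 and 54.3 RPKM in oidia, a log2 fold change of -2.54, while its previous neighbour CC1G_06380 was higher in hyphae at 4.32. CC1G_08233 (chromosome 5, 521935 to 524325) had 19.1 and 17.8 RPKM in hyphae, against 138 and 147 RPKM in oidia. Its log2 fold change of -2.94 stood beside 4.25 for CC1G_08234 and -1.30 for CC1G_08232, which was 0.25 with total-count scaling. CC1G_00207 (chromosome 5, 1344531 to 1345449) had 35.3 and 45.2 RPKM in hyphae, against 228 and 236 RPKM in oidia, and both its neighbours were higher in hyphae, at 1.52 and 0.57.

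By chromosome, the share of at least 4-fold changes among tested isolated paralogs ran between 31.0% on chromosome 8 and 52.9% on chromosome 10. It was above the share of all tested regions of the same chromosome on 12 of 13 chromosomes. The median log2 fold change ran between -0.28 on chromosome 13 and 1.36 on chromosome 6. Where both neighbours were orthologous, 72 isolated paralogs were higher and 45 lower of 145 tested (49.7% and 31.0%, against 45.3% and 38.1% of all regions so placed). With both neighbours orphan, 63 were higher and 43 lower of 129 tested (48.8% and 33.3%, against 39.1% and 45.7%). With 1 of each, 108 were higher and 90 lower of 246 (43.9% and 36.6%, against 43.7% and 40.8%).

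The gene rows of the table gave nearly the same calls. Of 514 isolated paralogs tested as a region and as a gene, 505 had the same call, none had opposite calls, and 9 were called in only 1 of the 2. Counts were identical in all 4 libraries for 359 of 782. The log2 fold changes differed by more than 1 for 3 loci. CC1G_15432 had 71 and 39 reads in hyphae and none in oidia by its region, and 75 and 44 against 0 and 1 by its gene. CC1G_12425 had 24 and 17 hyphal reads, against 18 and 14 oidia reads, by its region, and 122 and 106 against 42 and 37 by its gene. The third was CC1G_14884, described above. These were named after their values were seen.

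Repeats and transposons touched few of the isolated paralogs. In 7 regions a row of a repeat or transposon overlapped the region, and none of the 7 had enough reads to test. CC1G_03999, on chromosome 7 from 622114 to 623497, overlaps a Tet-JBP row of the Kyakuja transposon family. It had 2 and 1 reads in hyphae and none in oidia. The richest of the 7, CC1G_14464, had 4 and 3 hyphal reads, against 5 and 4 oidia reads.

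At the 100000-base limit the regions on either side were mixed. The nearest to an end among those kept, CC1G_02563 at 100719 bases, had 400 and 379 hyphal reads, against 83 and 72 oidia reads. The farthest among those left out for an end were CC1G_15236, with 2 and 2 hyphal reads against 0 and 3 oidia reads, and CC1G_08820, with 14407 and 10884 against 1929 and 1599. At the centromeres CC1G_15700, kept at 101722 bases, had 108 and 89 hyphal reads, against 4 and 0 oidia reads. CC1G_15074, left out at 98540 bases, had 7 and 1 hyphal reads, against 2 and 3 oidia reads. Of the 121 regions left out, 61 were tested, with 28 higher and 21 lower in hyphae (45.9% and 34.4%, against 44.1% and 40.0% of all tested regions).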

How the data were processed

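The deposited read counts, 1 per row and library per the file headers, were the input of all tests here. The submitters' processing notes name TopHat, Bowtie 0.12.7 and DESeq. No source used here names the genome build, annotation or counter, or its strand and multimapping settings, and reads of overlapping, antisense or near-identical features may be mixed. The deposited mean signal per stage, the fold change (ratio), 2 log2 columns and the p-value columns are the authors' own, and the deposited file notes name DESeq for the p-values. The deposited fold column is described as hyphae over oidia. By the values it is oidia over hyphae in all 21769 rows with both means above 0 (tolerance 0.1%), so directions were taken from the counts.

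All non-gene rows were fitted with edgeR 4.0.16 (R 4.3.3, quasi-likelihood test), using TMM factors of the genes, filterByExpr on the TMM-scaled library sizes, and Benjamini-Hochberg adjustment over the 9622 tested rows. The filter was first run on unscaled sizes. It was changed after those results were seen, and the first version is given as an alternative. Log2 fold changes are hyphae over oidia, and standard errors come from the F statistic and are approximate. Replicate libraries were farther apart than counting noise (chi-square over its degrees of freedom, 4.56 for hyphae and 3.63 for oidia). The fit was tested on simulated counts with a common dispersion, in which 200 of 14514 rows were changed. It recovered 23 of 50 changes of 1.5-fold, 44 of 50 of 2-fold, and 50 of 50 of both 4-fold and 8-fold. Far fewer rows were changed there than were called in the data, so the simulation does not bear on the scaling. Ratios resting on 10 or fewer reads in a stage have 95% exact intervals.

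Members and lists were chosen with earlier results of these data known. Named regions followed a rule: the 10 largest changes each way with a mean scaled count of at least 100 and no overlap of stages, the 5 most abundant per stage, the 3 flattest, the 3 with most reads among those read in 1 stage alone, the 3 longest, the 3 most remote, and the 3 farthest above and below their neighbours. Lists by product name could not be evaluated, since the CC3 gene list held none. No sequence is printed, as no genome was used here. Alternatives were other scalings, filters, DESeq2 1.42.0, limma 3.58.1, a replicate block and leaving out each library.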

Additional observations from a re-analysis of the deposited data

How the results depend on the processing

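Total-count scaling gave 381 isolated regions higher and 92 lower in hyphae, and a median log2 fold change of 2.00. Of these, 260 and 36 were at least 4-fold changed. Over all tested regions it gave 7032 higher and 1609 lower. At least 4-fold changes then made up 56.9% of tested isolated regions and 49.4% of all tested regions. A mean count of at least 100 left 185 tested isolated regions, with 76 higher and 96 lower and a median of -0.34. Of these, 42 and 50 were at least 4-fold changed. Over all 5128 regions tested with that filter, 2050 were higher and 2569 lower. At least 4-fold changes then made up 49.7% of tested isolated regions and 33.7% of all tested regions. Cyclic loess with limma-voom, chosen after seeing the data, gave 189 higher and 184 lower, 93 at least 4-fold higher and 98 at least 4-fold lower, and a median of -0.056. Over all tested regions cyclic loess gave 3675 higher and 3634 lower, and at least 4-fold changes made up 30.7%, against 36.7% of tested isolated regions. The median was 0.42 with DESeq2 size factors, 0.73 with upper-quartile scaling, 1.04 with no low-count filter and 0.81 with the DESeq2 Wald test. The filter on unscaled library sizes, the version run first, tested 557 regions, with 276 higher, 175 lower and a median of 0.72. Over all 9917 regions tested that way, 4476 were higher and 3757 lower, with a median of 0.25. Members with both neighbours orthologous numbered 72 higher and 45 lower. The difference in read share was 1.37 points without the member with most reads in each stage. Fewer regions entered with the mean count filter, while the other scalings and cyclic loess tested the same 520. The members' median minus that of all tested regions was 0.34 in the main fit. It was 0.34 with DESeq2 size factors, 0.34 with upper quartiles, 0.33 with total counts, -0.11 with the mean count filter and -0.086 with cyclic loess. The cause of these shifts was not tested.

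Leaving out 1 library gave medians of 0.49 to 0.71, against 0.14 to 0.22 for all tested regions, and share differences of 3.33 to 3.70 points. Such fits leave 1 library in a stage, so their calls are not counted here. The adjusted p of the authors' deposited table gave 226 higher and 162 lower, and its share over all regions is not given here. With the replicate number as a block, 231 were higher and 175 lower, against 4107 higher and 3761 lower among all 9576 tested regions. Same-numbered libraries did not deviate together (correlation 0.00196 over 5142 rows). With 1 such correlation, across different kits, it cannot be decided whether they were paired, and the labels do not say.

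Of 38 named regions with a test, signs turned for 5, all near 0 or under total-count scaling. CC1G_00378 had -0.017 with DESeq2 size factors and -0.018 with the Wald test, CC1G_09470 had -0.00041 with DESeq2 size factors, -0.0012 without oidia 2 and 0.10 without hyphae 1, and CC1G_11245 had -0.063 with cyclic loess. CC1G_04252 had 0.27 with total counts. CC1G_06771 had 0.24 with upper quartiles, 1.51 with total counts, 0.18 without hyphae 1, 0.20 without oidia 2 and -0.27 without oidia 1. CC1G_02432 had 7.63 without oidia 1 and, with no oidia read left, a fitted 11.51 without oidia 2. Few oidia reads limit the precision of all loci that are nearly absent in that stage.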
